A study of Homo sapiens with 3 samples.

Results

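The ZNF genes are the large class of human genes named as numbered zinc finger proteins. The genes described here were the rows of the deposited FPKM table whose symbol is ZNF, a number and at most 1 letter and whose description does not name a pseudogene. They were selected on their mean over the 3 libraries, at least 2 FPKM (fragments per kilobase of transcript, scaled to the mapped fragments of the library). The rule itself uses no fold over control, but both ATO libraries enter that mean. It was set with earlier results of these data known. The symbol pattern found 530 rows, of which 30 were pseudogenes. Of the other 500, 258 reached the threshold and are called the members below, out of 34520 rows in the table. The libraries came from SK-N-BE(2), an established human neuroblastoma cell line, and were 1 of control cells, 1 of cells given ATO (arsenic trioxide) at 2 µM for 12 h and 1 of cells given ATO at 4 µM for 12 h. The labels name no genetic change for any of these groups and no vehicle for the control. With 1 library per group no value has a replicate check, so the values below carry no error between cultures, and a difference between libraries is that of these cultures.

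Most ZNF proteins bind DNA through repeated C2H2 fingers, short loops in which cysteines and histidines hold a zinc ion. Many also carry a KRAB box, a domain that recruits the co-repressor TRIM28 (KAP1) and with it the histone methyltransferase SETDB1, and that silences transposable elements and other genomic repeats. KRAB genes lie largely in tandem clusters, above all on chromosome 19, and close copies resemble each other in sequence. A smaller number of ZNF proteins have few fingers and act outside this system, in ribosome assembly, RNA handling or ubiquitin transfer.

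All 7 listed neuroblastoma genes were present (MYCN at 832, 412 and 197 FPKM in control, 2 µM and 4 µM cells). Their summed level was 1174, 642 and 307 FPKM in this order, and 6 of 7 were lower by more than 2-fold at 4 µM, where 5.48% of all rows that average 2 FPKM or more were. The 7 listed fibroblast-associated genes summed to 180, 106 and 62.5 FPKM, and 5 of them were lower by more than 2-fold at 4 µM. The listed leukocyte, endothelial and epithelial genes summed to at most 5.26, 2.47 and 3.42 FPKM in any library. CD68 made up most of the leukocyte sum, with 0.534, 3.69 and 4.87 FPKM. CDH1 and ITGAM were listed at 0 in the control. What part these shifts have in the values below was not tested.

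As a class the members stood near their control level at both doses. At 4 µM the median log2 fold was 0.02, with 133 members above and 125 below 0, against a median of -0.12 over the 10412 rows of any gene that reach the same mean, called all rows below. At 2 µM the median was -0.005 for the members and 0.02 for all rows. Log2 folds are of FPKM + 1, which understates differences of low genes. The 2-fold rule asks for a log2 fold of 1 or more in size. It was passed at 4 µM by 8 members, 6 higher and 2 lower, which is 3.10% of the members. The count depends on the number added to the FPKM: 13 members passed with 0.1 added and 1, ZNF697, with 5 added, so the calls of the other 7 named below end there. Over all rows 9.84% passed, 4.36% higher and 5.48% lower. At 2 µM 0 of 258 members passed, against 2.04% of all rows, and between 4 µM and 2 µM again 0, against 2.61%. By a smaller rule of 1.5-fold, 18 members were higher and 17 lower at 4 µM, where 10.9% of all rows were higher and 17.5% lower. At 2 µM 4 members were higher and 3 lower by the smaller rule, against 4.92% and 3.97% of all rows.

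The members' folds were also less spread out than those of all rows. At 4 µM the quartiles lay at -0.26 and 0.29 for the members, a width of 0.55, and at -0.45 and 0.24 for all rows, a width of 0.69. At 2 µM the widths were 0.31 for the members and 0.39 for all rows. Among rows with a mean of 2 to 3 FPKM, the width at 4 µM was 0.43 for 74 members and 0.65 for all 1385 rows, and among those with 3 to 5 FPKM it was 0.50 for 77 members and 0.71 for all 1932 rows. With 5 to 10 FPKM it was 0.66 for 71 members and 0.66 for all 2819 rows, and with 10 FPKM or more 0.60 for 36 members and 0.72 for all 4276 rows. The medians in these level bands were 0.07 for members and -0.18 for all rows at 2 to 3 FPKM, 0.02 and -0.18 at 3 to 5 FPKM, and 0.02 and -0.14 at 5 to 10 FPKM. Only the 36 members at 10 FPKM or more had a median below that of all rows in their band, -0.13 against -0.07.

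**Figure D1:**
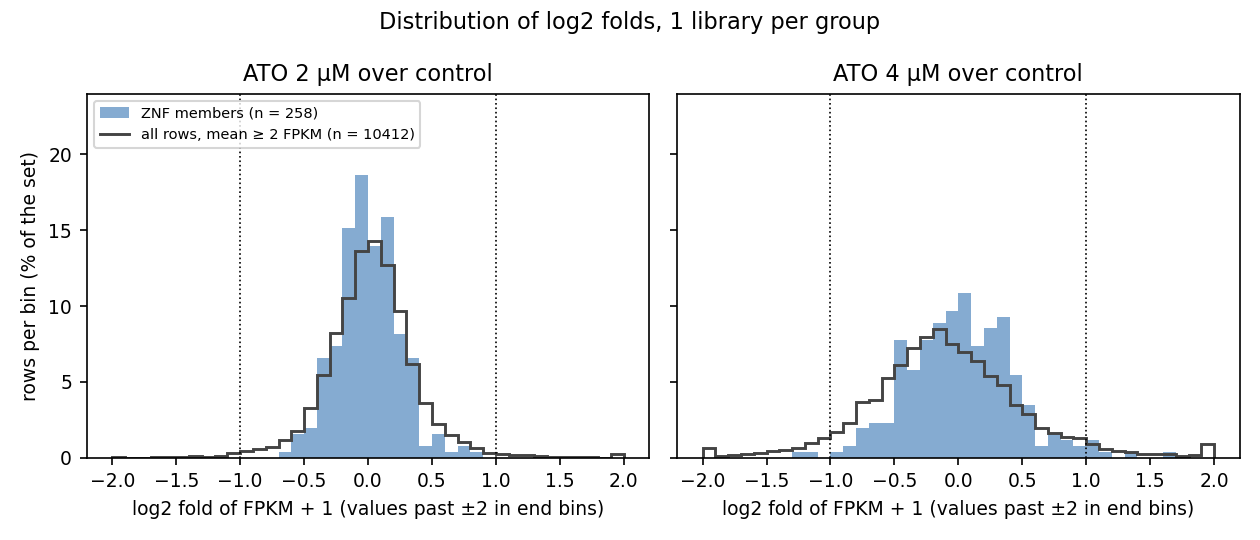
Share of rows in each bin of 0.1 log2 units (y axis, percent of the set) by log2 fold of FPKM + 1 (x axis), for ATO 2 µM over control on the left and ATO 4 µM over control on the right. Filled bars are the 258 ZNF members, the line is all 10412 rows that reach the same mean, and dotted lines mark the 2-fold rule, which 0 members passed at 2 µM and 8 at 4 µM.

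Absolute levels of the class were alike in the 3 libraries. The members' FPKM ran from 1.16 to 65.4 in control cells with a median of 4.41, from 1.64 to 59.96 at 2 µM with a median of 4.32, and from 1.41 to 64.6 at 4 µM with a median of 4.19. Summed, they held 0.635%, 0.619% and 0.670% of all FPKM in control, 2 µM and 4 µM cells. Of the 258, 151 had a mean under 5 FPKM and 9 had 20 FPKM or more. The highest was ZNF664, with 65.4, 59.96 and 57.4 FPKM in control, 2 µM and 4 µM cells. ZNF146, ZNF22, ZNF512 and ZNF300 followed behind ZNF622, which is described below, with means of 27.9, 25.8, 25.2 and 22.6 FPKM and log2 folds at 4 µM of -0.49, -0.31, -0.17 and 0.26. None of these 5 genes passed even the smaller rule in either comparison with the control.

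The threshold of 2 FPKM cuts through a continuous range. Just inside it stood ZNF155, ZNF688 and ZNF564, with means of 2.004, 2.009 and 2.009 FPKM and log2 folds at 4 µM of 0.24, -0.27 and 0.20. Just outside stood ZNF597, ZNF2 and ZNF502, with means of 1.97, 1.97 and 1.97 FPKM and log2 folds of 0.60, 0.16 and -0.27. Of the 242 ZNF rows below the threshold 124 had a mean of at least 1 FPKM, 23 had under 0.1 FPKM and 1 was at 0 in each library. Since the mean includes the ATO libraries, 18 members fell short of 2 FPKM in control cells, while 5 did so at 2 µM and 10 at 4 µM.

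ZNF697 had the largest fold at 4 µM. It stood at 3.83, 7.02 and 14.0 FPKM in control, 2 µM and 4 µM cells, with log2 folds over control of 0.73 at 2 µM and 1.64 at 4 µM. It was 1 of the 5 largest in each of the comparisons. ZNF503, a regulator of embryonic development without a tandem finger array, had 4.94, 9.66 and 13.7 FPKM in control, 2 µM and 4 µM cells (log2 folds 0.84 and 1.31). Its RefSeq span overlaps the antisense genes ZNF503-AS1 and ZNF503-AS2, and since no strand setting is given for the counting, reads of these genes cannot be told apart. ZNF222 had 1.16, 2.74 and 3.70 FPKM (log2 folds 0.79 and 1.12), so it reached the threshold through the ATO libraries. ZNF823, a chromosome 19 gene with a KRAB box, had 2.61, 4.07 and 6.73 FPKM (0.49 and 1.10).

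ZNF804A, which lies at a locus linked to schizophrenia, had 10.1 FPKM in control cells, 15.4 FPKM at 2 µM and 22.6 FPKM at 4 µM (0.56 and 1.08). ZNF622 is the human counterpart of yeast Rei1, a factor of late maturation of the large ribosomal subunit. It was the most abundant gene past the 2-fold rule, at 30.4 FPKM in control cells, 48.8 FPKM at 2 µM and 64.6 FPKM at 4 µM (0.67 and 1.06). In each of these 6 genes the order was control, 2 µM, 4 µM from low to high.

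At 4 µM the next 6 members ranged from 0.75 to 0.92 on the log2 scale and passed only the smaller rule. ZNF746 (PARIS), a parkin substrate that represses PPARGC1A, had 4.70, 7.32 and 9.82 FPKM in control, 2 µM and 4 µM cells. ZNF281, a transcription factor studied in stem cells, had 10.9, 13.5 and 19.7 FPKM. ZNF229 and ZNF654 had log2 folds of 0.91 and 0.84, and ZNF654 shares its span with CGGBP1. ZNF560 and ZNF10 differed from the rest in their 2 µM values. ZNF560 had 1.89 FPKM in control cells, 1.88 FPKM at 2 µM and 4.27 FPKM at 4 µM. ZNF10 (KOX1), whose KRAB box is the repressor part of many engineered repressors, had 2.76 FPKM in control cells, 2.37 FPKM at 2 µM and 5.34 FPKM at 4 µM (0.91 for 4 µM over 2 µM).

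On the low side ZNF608 and ZNF512B passed the 2-fold rule at 4 µM. ZNF608 had 8.96 FPKM in control cells, 5.62 FPKM at 2 µM and 3.16 FPKM at 4 µM (-0.59 and -1.26). ZNF512B had 15.4, 10.2 and 6.32 FPKM (-0.55 and -1.16), and it overlaps the antisense gene UCKL1-AS1. ZNF593 is the counterpart of yeast Bud20, which acts in export of the large ribosomal subunit, and it had another course. It stood at 9.21 FPKM in control cells, 9.66 FPKM at 2 µM and 4.36 FPKM at 4 µM (0.06 and -0.93). Its fold of -0.99 between 4 µM and 2 µM was the lowest of the class, and ZNF593OS overlaps it. The pair of ZNF genes with counterparts in yeast ribosome assembly thus had opposite signs at 4 µM, 1.06 for ZNF622 and -0.93 for ZNF593.

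Below these came ZNF239 (-0.82), ZNF580 (-0.80), ZNF74 (-0.80), ZNF25 (-0.73), ZNF639 (-0.73), ZNF33A (-0.72), ZNF385A (-0.70), ZNF436 (-0.62) and ZNF595 (-0.61). ZNF436 was the most abundant of them, at 22.03 FPKM in control cells, 16.97 FPKM at 2 µM and 13.9 FPKM at 4 µM, and overlaps ZNF436-AS1. ZNF33A and ZNF33B are similar copies whose separate values are uncertain. Uncertain too are the values of members that overlap a gene, such as ZNF146 with ZNF565, ZNF140 with ZNF891 and ZNF106 with SNAP23. ZNF580 and ZNF581 overlap each other, and they had 3.70, 2.19 and 1.70 FPKM and 4.37, 5.46 and 3.17 FPKM in control, 2 µM and 4 µM cells.

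**Figure D2:**
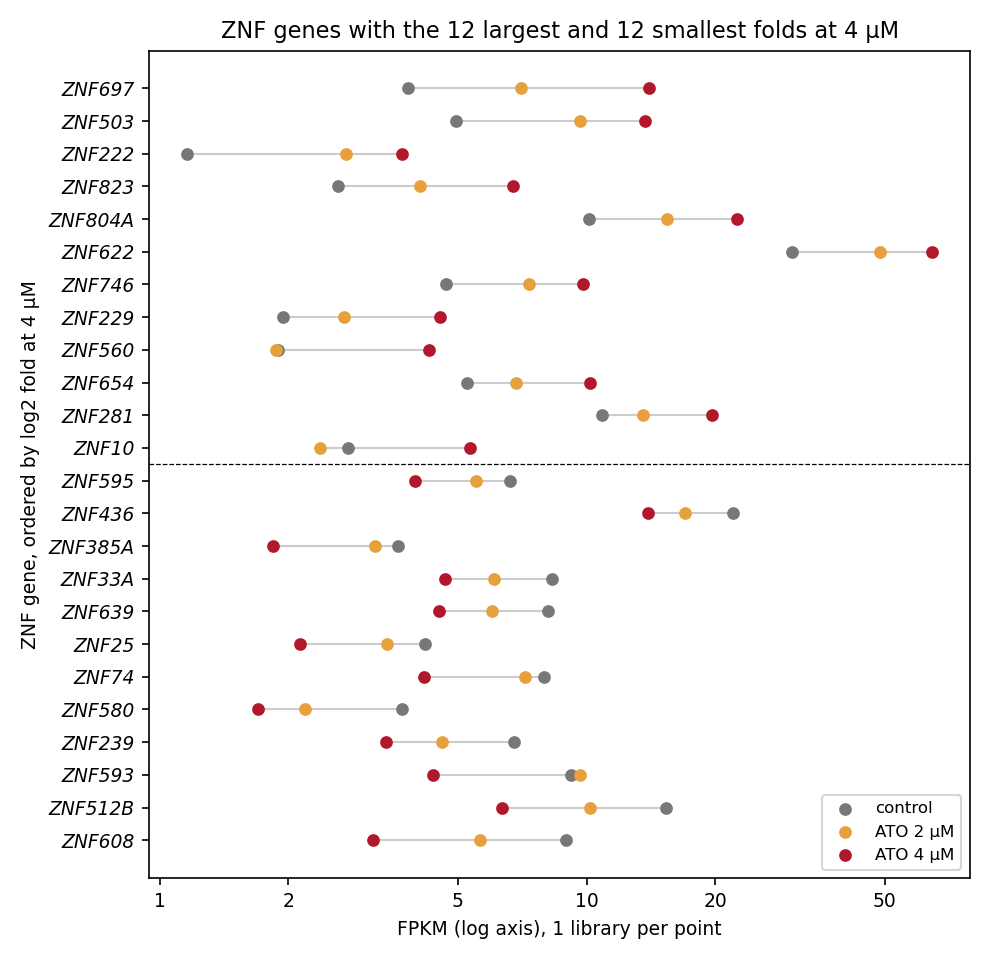
FPKM (x axis, log scale) of the 24 members with the largest and smallest log2 folds at 4 µM (y axis), with 1 point per library in grey for control, orange for ATO 2 µM and red for ATO 4 µM. Above the dashed line the red point is rightmost in each gene and below it leftmost, while the orange point of ZNF560, ZNF10 and ZNF593 lies at or beyond the control point.

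Promoter sequences, 250 bases before to 50 after the start, were found for 223 members in RefSeq on GRCh38.p14. They are shown for the members at the ends of the fold range that have an entry, and for ZNF622, ZNF222 and ZNF593, which hold searched motifs, a choice made after the values were seen. Capitals mark matches, on either strand, to CACGTG, the E-box of MYC family dimers, to TGACNNNGC, the core of the antioxidant response element bound by NRF2, or to TGATGNAA, the element bound by C/EBP-ATF dimers such as those of ATF4.
ZNF697, chr1:119648217-119648516, minus strand: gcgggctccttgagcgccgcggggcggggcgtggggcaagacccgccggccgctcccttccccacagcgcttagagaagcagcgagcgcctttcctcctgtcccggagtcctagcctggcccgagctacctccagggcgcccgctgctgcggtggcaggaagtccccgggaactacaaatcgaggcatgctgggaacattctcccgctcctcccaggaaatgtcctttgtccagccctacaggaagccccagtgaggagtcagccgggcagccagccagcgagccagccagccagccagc
ZNF622, chr5:16465751-16466050, minus strand: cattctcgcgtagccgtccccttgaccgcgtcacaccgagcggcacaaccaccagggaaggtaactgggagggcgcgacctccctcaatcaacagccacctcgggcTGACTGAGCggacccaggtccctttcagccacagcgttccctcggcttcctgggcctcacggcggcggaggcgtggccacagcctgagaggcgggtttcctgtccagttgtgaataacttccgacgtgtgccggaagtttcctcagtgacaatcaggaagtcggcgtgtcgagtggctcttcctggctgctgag
ZNF222, chr19:44025129-44025428, plus strand: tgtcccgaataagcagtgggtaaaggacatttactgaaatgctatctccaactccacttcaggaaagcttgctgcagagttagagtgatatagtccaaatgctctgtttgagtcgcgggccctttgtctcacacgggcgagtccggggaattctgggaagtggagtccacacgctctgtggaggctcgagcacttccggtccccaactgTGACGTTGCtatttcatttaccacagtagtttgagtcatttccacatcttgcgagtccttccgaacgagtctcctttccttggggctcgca
ZNF608, chr5:124748775-124749074, minus strand: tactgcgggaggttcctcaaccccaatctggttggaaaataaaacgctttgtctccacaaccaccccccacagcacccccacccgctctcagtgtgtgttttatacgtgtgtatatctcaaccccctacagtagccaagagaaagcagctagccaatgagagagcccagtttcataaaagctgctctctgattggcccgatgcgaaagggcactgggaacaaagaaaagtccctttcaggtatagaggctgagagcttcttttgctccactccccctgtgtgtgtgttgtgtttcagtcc
ZNF593, chr1:26169658-26169957, plus strand: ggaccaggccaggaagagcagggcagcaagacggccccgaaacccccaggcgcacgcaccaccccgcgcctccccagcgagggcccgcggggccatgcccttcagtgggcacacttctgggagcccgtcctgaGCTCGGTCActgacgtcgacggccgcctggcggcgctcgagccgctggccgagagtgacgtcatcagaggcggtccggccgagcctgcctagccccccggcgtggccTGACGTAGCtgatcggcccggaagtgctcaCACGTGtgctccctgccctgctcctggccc
ZNF697 and ZNF608, at opposite ends of the class, held none of the searched motifs in this window. ZNF622 and ZNF222 each held 1 antioxidant core. ZNF593 held 1 E-box and 2 antioxidant cores.

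CACGTG was in 5.38% of the 223 member promoters, against 10.7% of the 7977 promoters of all rows at the same mean and 7.43% of all 27305 promoters. TGACNNNGC was in 15.7% of member promoters, against 15.4% of those of all rows and 13.6% of all promoters. TGATGNAA was in 1.79% of member promoters, against 1.57% of those of all rows and 3.67% of all promoters. The 12 members with the E-box had a median log2 fold of -0.18 at 4 µM and those without it 0.02, and all considered rows with the E-box had -0.17. The 35 members with the antioxidant core had a median of 0.13 and those without it -0.01, while all considered rows with it had -0.08. A match is a description of these letters and not a bound site.

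The 2 µM library had some low values that were less low at 4 µM. ZNF704 had 16.6 FPKM in control cells, 10.4 FPKM at 2 µM and 12.9 FPKM at 4 µM (-0.63 and -0.35), and ZNF732 had 4.18, 2.42 and 3.25 FPKM (-0.60 and -0.28). ZNF140, a KRAB gene, was among the 5 highest at 2 µM with 1.95 FPKM in control cells, 3.38 FPKM at 2 µM and 3.71 FPKM at 4 µM (0.57 and 0.67). Between the doses 5 members were higher and 8 lower at 4 µM by the smaller rule, against 4.64% and 10.5% of all rows. ZNF106, with 12.5, 10.8 and 18.7 FPKM in control, 2 µM and 4 µM cells, was among the higher ones (0.74 for 4 µM over 2 µM). ZNF691 (-0.63) and ZNF581 (-0.63) were among the lower ones.

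Most of the listed well-studied members had small folds. ZNF143, a factor bound at many promoters, had 5.96, 5.76 and 7.37 FPKM in control, 2 µM and 4 µM cells (log2 fold 0.27 at 4 µM). ZNF384, a gene rearranged in some acute leukaemias, had 15.99, 18.4 and 22.4 FPKM (0.46) and ZNF148 had 5.42, 5.06 and 6.23 FPKM (0.17). ZNF423, a multi-finger protein of neural precursors that takes part in the retinoic acid response of neuroblastoma cells, had 5.80, 5.06 and 3.79 FPKM (-0.51). ZNF711, an X-linked gene mutated in intellectual disability, had 25.95, 21.6 and 18.8 FPKM (-0.44). ZNF638 had a log2 fold of -0.43, ZNF395 of -0.38 and ZNF217, an oncogene amplified in breast cancer, of -0.28. ZNF281, above, was the single one of these genes past the smaller rule. ZNF703 was no member, at 0.702, 1.58 and 2.24 FPKM.

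Domain content was read from the longest coding product of each gene in GENCODE 29, translated from its annotated coding sequence, which was found for 257 members. They held 0 to 33 C2H2 fingers with a median of 10, and 136 had 10 or more. A strict pattern for the KRAB box matched 108 products and left 149 without a match, and it misses some known KRAB genes, ZNF140 and ZNF222 among them. The median log2 fold at 4 µM was 0.07 for the KRAB members and -0.05 for those without a match, which turned to 0.088 in the set without a match under median-of-ratios scaling, a scaling that moved the median of all rows to 0.02. At 2 µM the medians were -0.004 for KRAB members and -0.005 for the others. Of the 108 KRAB members 1 passed the 2-fold rule at 4 µM, ZNF823, and 0 of them were lower by it. The other 7 that passed, ZNF222 among them, were of the 149 without a KRAB match. Over all rows 9.84% passed, and both sets were below that share. The KRAB members had lower levels (median of the means 3.50 against 5.43 FPKM), lower GC content of their transcripts (45.6% against 50.7%) and more fingers (12 against 8). With GC content and length corrected, a setting chosen after the data were seen, the medians at 4 µM were 0.086 and 0.003.

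By number of fingers the medians at 4 µM were -0.18 for 46 members with up to 4 fingers, -0.04 for 54 with 5 to 8, 0.03 for 82 with 9 to 12, 0.17 for 46 with 13 to 16 and 0.02 for 29 with 17 or more. The members with up to 4 fingers were also the most abundant, with a median of the means of 6.93 FPKM. Of these 46 members 5 passed the 2-fold rule at 4 µM, 3 higher and 2 lower. Over all rows 9.84% passed, so this count is near that background. A SCAN box, a dimerization domain found next to the fingers, was matched in 10 members, whose median at 4 µM was -0.07.

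By position, the 89 members on chromosome 19 had a median log2 fold of 0.15 at 4 µM and 56 of them were above 0. The 169 on other chromosomes had a median of -0.06 with 77 above 0, and of all 10412 rows 4218 were above 0. Median-of-ratios scaling gave these 169 members a median of 0.075, but it also moved the median of all members from 0.02 to 0.15. The value of 0.075 is thus not comparable with the unscaled 0.15 of chromosome 19. At 2 µM the medians were 0.04 and -0.05. Among KRAB members the median at 4 µM was 0.20 for the 59 on chromosome 19 and -0.03 for the 49 elsewhere. Members without a KRAB match had 0.007 for the 29 on chromosome 19 and -0.07 for the 120 elsewhere. The chromosome 19 set without a match includes ZNF222, a KRAB gene that the pattern misses. A looser pattern, sought in the first 150 residues, also matched ZNF100, ZNF302, ZNF428, ZNF430 and ZNF675 of this set. Elsewhere it matched ZNF746 and ZNF680 among others. The sets without a match thus cannot be read as sets without KRAB genes. The other rows of chromosome 19, 505 in all, had a median of -0.16. Their transcripts had a median GC content of 60.9%, against 45.6% for the chromosome 19 members. What part GC content has in this difference was not tested. Chromosome 19 members were lower in level, with a median of the means of 2.88 FPKM against 5.46 FPKM. Some were under 2 FPKM in control cells and reached the threshold through the ATO libraries. ZNF222, ZNF229, ZNF560 and ZNF274 are examples, all above 0 at 4 µM. Others, such as ZNF580 and ZNF766, were under 2 FPKM at 4 µM and stood below 0. What part this selection has in the medians by position was not tested. Among members with a mean of 2 to 5 FPKM the medians were 0.17 for 76 on chromosome 19 and -0.13 for 75 elsewhere, but the 13 chromosome 19 members with 5 FPKM or more had -0.03, against -0.01 for 94 elsewhere. Of the other chromosomes with at least 10 members, chromosome 10 had the lowest median at 4 µM (-0.37 over 11 members) and chromosome 7 the highest (0.12 over 24).

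**Figure D3:**
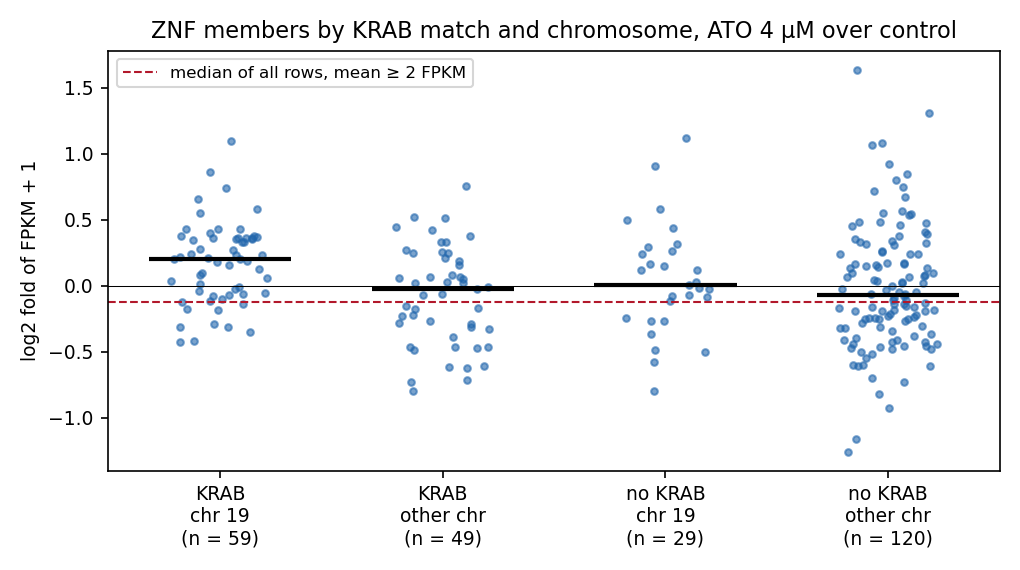
Log2 fold of FPKM + 1 for ATO 4 µM over control (y axis) of the 257 members with a protein model, split by KRAB match and by chromosome 19 (x axis), with 1 point per gene and a bar at the median. The bar of the KRAB members on chromosome 19 lies at 0.20 and the other 3 between -0.07 and 0.01, all above the dashed median of all rows at -0.12.

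Within chromosome 19 the members were split into runs wherever the next member began more than 1 Mb further on, a split chosen after their values were seen, with gene order from RefSeq on GRCh38.p14. Of all 89 chromosome 19 members 56 were above 0 at 4 µM, and of all 10412 rows 4218 were. The counts by run were not tested against these shares. In the run from ZNF557 to ZNF562, 9 of 12 members were above 0 at 4 µM (median 0.24). From ZNF627 to ZNF791 it was 8 of 11 (0.20), from ZNF428 to ZNF229 5 of 6 (0.30) and from ZNF304 to ZNF8 8 of 11 (0.27). From ZNF14 to ZNF43, a run of 13 genes, 6 were above 0 (-0.03), and from ZNF649 to ZNF761, also 13, 7 were (0.15). From ZNF730 to ZNF254 it was 4 of 5 (0.03), and from ZNF579 to ZNF444 2 of 6 (-0.05). The KRAB pattern matched none of the 6 members of the run that holds ZNF222. Since ZNF222 is a KRAB gene that the pattern misses, this run cannot be read as one without KRAB genes. Neighbours within a run could differ widely. ZNF823 (1.10) stood in the same run as ZNF700 (-0.43), and ZNF222 (1.12) in the same run as ZNF428 (-0.58).

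**Figure D4:**
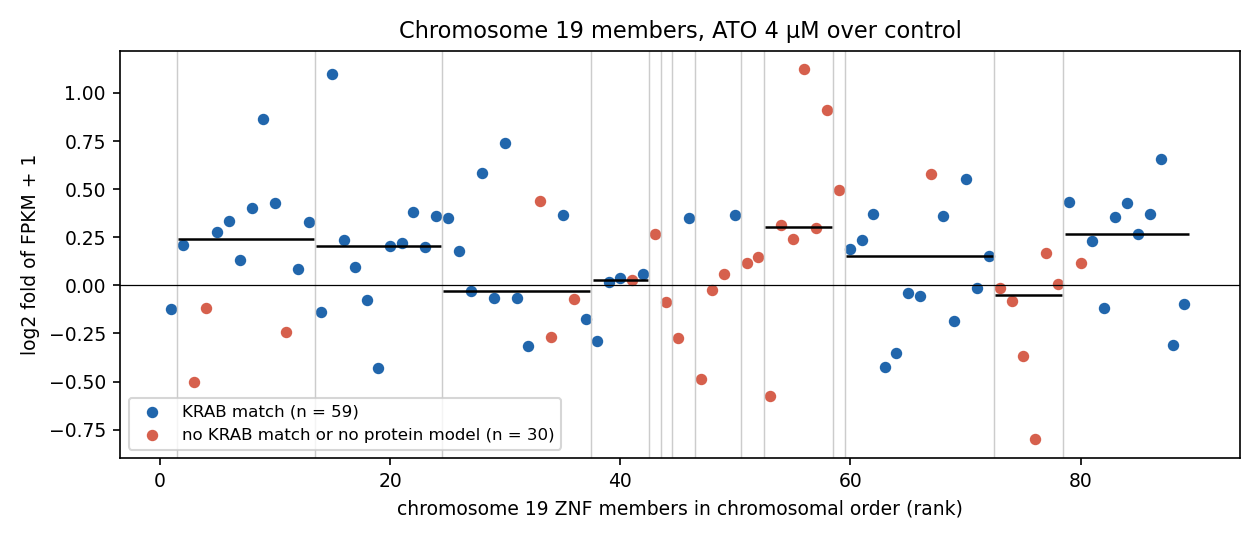
Log2 fold of FPKM + 1 for ATO 4 µM over control (y axis) of the 89 chromosome 19 members in chromosomal order (x axis, rank), with KRAB members in blue and the others in red. Grey lines part the runs and black bars give the medians of runs with at least 5 members, which range from -0.05 to 0.30.

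The KRAB co-repressor machinery lay lower than the ZNF members at 4 µM. The table held 25 of the listed genes, and 23 of them reached the same mean as the members. Their median log2 fold was -0.36 at 4 µM and -0.09 at 2 µM, against -0.12 and 0.02 for all rows. None passed the 2-fold rule. By the 1.5-fold rule 4 of the 23 were lower and 0 higher at 4 µM, where 17.5% of all rows were lower. The count of lower genes is thus near that background. TRIM28, the scaffold that KRAB boxes bind, had 46.4, 44.2 and 31.8 FPKM in control, 2 µM and 4 µM cells, a log2 fold of -0.53 at 4 µM. The 4 past the smaller rule were the genes of the 3 heterochromatin proteins, CBX3 (-0.80), CBX1 (-0.75) and CBX5 (-0.60), and SETDB1, the methyltransferase of histone H3 lysine 9, with 11.7, 9.02 and 7.02 FPKM in control, 2 µM and 4 µM cells (-0.67).

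At the depth inferred from the spacing of low FPKM values, a transcript of 2 kb at 2 FPKM would rest on about 71.9 fragments in the control library, taking 2 counted units as a fragment. Counting alone would then give a log2 fold an SD of about 0.16 with the added 1 FPKM. Spread between cultures comes on top and is unknown here. The SD of 0.16 is therefore no limit above which a single fold is established. The order of single members by fold holds for these libraries only.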

How the data were processed

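RNA was sequenced from 3 libraries of SK-N-BE(2) cells, 1 per group, made with a paired-end TruSeq kit per the labels' protocols. The authors deposited FPKM values per gene and library, per the file headers. No source used here gives the aligner, the counting tool, the strand setting or the handling of reads that match several genes, so close paralogs and overlapping genes are uncertain (139 of 258 members overlap another RefSeq gene). GRCm38 and mm10, which are mouse builds, stand in the submitters' processing notes, but the table lists human genes. The build of the files is therefore not settled, and coordinates are printed only for RefSeq promoters on GRCh38.p14.

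Log2 ratios of FPKM + 1 were computed with Python 3.11.15, numpy 2.4.6 and pandas 2.3.3, without scaling between libraries. Only rows averaging 2 FPKM or more were considered. No test was possible with 1 library per group. RefSeq proteins were not used here, so fingers (2 to 4, 12 and 3 to 5 residues between the cysteines and histidines) and the KRAB box (a tryptophan, then 9 to 11 residues to the conserved end of its A box) were sought in GENCODE 29 coding sequences translated with Biopython 1.88. The code was tested on simulated data. Pseudocount, filter, scaling, TPM, GC content, gene overlap and KRAB pattern were varied.

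Named genes were the 12 largest and 12 smallest folds at 4 µM, the 5 of each in the other comparisons, the 6 highest means, the genes at the threshold, a short list of well-studied genes, and the 4 largest absolute folds of each other list. Genes named for their run on chromosome 19 were chosen after their values were seen. The members and lists were chosen with earlier results of these data known.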

Additional observations from a re-analysis of the deposited data

How the results depend on the processing

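The gap between the members' median and that of all rows at 4 µM was 0.14 on the log2 scale. It was 0.07 at a mean of at least 5 FPKM, 0.01 without a filter on low values and at most 0.18 in any setting tried. The whole table had a median level of 0.26 FPKM in control cells, where the added 1 FPKM draws log2 folds towards 0. Median-of-ratios scaling moved the median of all rows at 4 µM from -0.12 to 0.02, and with it the medians of the members (0.15), the KRAB members (0.21) and the members without a KRAB match (0.088), and of the members at 4 µM over 2 µM (0.12). The share of higher rows among all rows past the 2-fold rule was then 62.7%, against 44.3%, and 8 members were higher and 2 lower. The number of members past the rule at 4 µM was 13 with a pseudocount of 0.1, 1 with 5, and 5 among the 119 members that overlap no other gene, a setting chosen after seeing the data like the correction for GC content and length. For 2 µM over control it was 1 with a pseudocount of 0.1 and 1 as TPM, and for 4 µM over 2 µM it was 3 with a pseudocount of 0.1, 2 with median-of-ratios scaling and 4 as TPM. With GC content and length corrected, the median of members without a KRAB match was 0.003. Of 85 recomputed medians of the class and its KRAB split 81 moved by at most 0.1, and of 66 for members on chromosome 19 and elsewhere 60 did. At a pseudocount of 5 ZNF697 alone passed. No paired analysis was possible because each group has 1 library, and no library could be left out for the same reason.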

Other observations

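Other zinc finger families were measured beside the ZNF class. Of 31 considered ZBTB genes, which pair fingers with a BTB domain, 2 were higher and 1 lower by the 2-fold rule at 4 µM, with a median log2 fold of 0.14. Of all rows 4.36% were higher and 5.48% lower by this rule, so the ZBTB count is near that background. ZBTB40 had 8.25, 13.7 and 20.6 FPKM in control, 2 µM and 4 µM cells, a log2 fold of 1.22 at 4 µM, and ZBTB34 had 5.21, 6.72 and 12.0 FPKM (1.06). ZBTB12 had 6.41, 5.01 and 1.95 FPKM (-1.33), and ZBTB43 had a log2 fold of 0.82. Among 9 considered KLF genes KLF10, an early gene of TGF-beta signalling, had 11.7, 21.1 and 30.2 FPKM (1.29), while KLF16 (-0.99), KLF7 (-0.84) and KLF11 (0.82) did not pass the 2-fold rule.

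Of 9 considered genes of the ZFP symbol pattern none passed the 2-fold rule. They were led by ZFP69B (0.99), ZFP62 (-0.87), ZFP36 (0.79), which encodes an RNA-binding protein of another finger type, and ZFP41 (-0.43), and their median was -0.05. The 9 ZSCAN genes had a median of -0.08, the 5 ZKSCAN genes -0.01 and the 4 SP genes -0.15 at 4 µM, with 0 genes past the 1.5-fold rule in each of these 3 lists. ZSCAN26 (0.56), ZKSCAN5 (0.50) and SP1 (-0.38) had the largest absolute folds in them.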
